A study of Mus musculus with 9 samples.

Results

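Kcnj12, Kcnj4, Kcnk1, Kcnk2 and Kcnk9 are potassium channel genes that set how a neuron rests. They were taken by symbol from a table of 31052 columns, 1 of which names no gene, and all 5 were present and passed the filter on low values. Kcnj4 and Kcnj12 encode the inward rectifiers Kir2.3 and Kir2.2. Kcnk1, Kcnk2 and Kcnk9 encode tandem-pore leak channels known as TWIK1, TREK1 and TASK3. They were chosen by their measured read levels in place and silent libraries, so those levels are given as a description without a test.

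Libraries were made from nuclear RNA of wild-type mouse hippocampal pyramidal cells, whose long-range excitatory output carries information out of the hippocampus. The cells of 5 libraries had been classed as place cells, active at certain positions of the animal, and those of 4 as silent cells. Activity was imaged with a two-photon microscope during navigation, and nuclei were then tagged with light and collected. No treatment or age is given, all animals were WT, and each title has its own mouse designation, though neither independence of the animals nor the number of nuclei is stated. In such bulk samples, fewer cells expressing a gene and less RNA per cell cannot be told apart.

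Inward rectifiers pass potassium more easily into the cell than out of it, because polyamines and magnesium block the pore from inside when the cell depolarises. Kir2 channels need the membrane lipid PIP2 to open and help to hold a neuron near the potassium equilibrium potential. Tandem-pore channels, each subunit of which carries a pair of pore loops, stay open over a wide voltage range and carry the background leak. TREK channels respond to stretch, lipids and G protein signalling, and TASK channels close in acid and under receptors that couple to Gq.

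The RefSeq promoters of the Kir2 pair are shown because these are the channels whose reads were missing from some libraries, and they are unlike in CpG content. Both windows run from 250 bases before to 50 bases after the annotated start, read 5′ to 3′ on the gene's strand in build GRCm38.p6, and capitals mark CpG dinucleotides. The Kcnj12 window lies at chr11:61065554-61065853 on the plus strand and the Kcnj4 window at chr15:79505192-79505491 on the minus strand.
Kcnj12: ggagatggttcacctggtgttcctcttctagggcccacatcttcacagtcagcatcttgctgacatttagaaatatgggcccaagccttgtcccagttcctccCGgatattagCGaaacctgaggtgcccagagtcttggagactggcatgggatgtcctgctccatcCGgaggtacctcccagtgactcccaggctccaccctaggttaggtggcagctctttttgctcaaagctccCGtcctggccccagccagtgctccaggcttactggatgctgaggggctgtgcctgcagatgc
Kcnj4: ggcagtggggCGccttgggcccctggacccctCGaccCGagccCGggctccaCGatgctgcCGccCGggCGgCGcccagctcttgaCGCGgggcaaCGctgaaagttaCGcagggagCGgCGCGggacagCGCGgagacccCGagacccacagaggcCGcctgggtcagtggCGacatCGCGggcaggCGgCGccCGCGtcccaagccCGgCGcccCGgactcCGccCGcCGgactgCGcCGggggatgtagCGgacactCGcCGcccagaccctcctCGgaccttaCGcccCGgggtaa

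The Kcnj12 window held 4 CpG and the Kcnj4 window 41, against a median of 7 over 32851 promoter windows of the same length. GC boxes (GGGCGG, both strands) numbered 0 in the Kcnj12 window and 4 in the Kcnj4 window, and 35.7% of all windows held at least 1. E-boxes (CANNTG, which reads the same on both strands) numbered 2 in the Kcnj12 window and 0 in the Kcnj4 window, with 72.3% of windows holding 1 or more. Neither window held a TATA box (TATAAA, both strands, 13.6% of windows) or a full cAMP response element (TGACGTCA, both strands, 1.79% of windows). By symbol, 4 of the 5 genes had an entry. Such matches describe the sequence only.

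Recovered reads numbered 15279111 to 21916933 in place and 14008282 to 22295233 in silent libraries. Pyramidal neuron markers were abundant in every library, with a summed level of 2830 to 3844 reads per 1000000 (RPM) in place and 3034 to 4138 RPM in silent libraries over 5 genes. Reads were missing in at least 1 library for 42% of the 15231 genes tested, so a gene with no reads in a library was common. Silent replicate 1 was the shallowest library and had the fewest genes detected, at 14175. Markers of oligodendrocytes summed to 191 to 3289 RPM in place and 118 to 540 RPM in silent libraries, with place replicates 1, 2 and 3 highest. Interneuron markers summed to 27.6 to 253 RPM in place and 70.7 to 788 RPM in silent libraries. Silent replicate 3 was the highest in them, with Vip at 641 RPM. Dentate granule markers summed to 9.25 to 370 RPM in place and 75.3 to 125 RPM in silent libraries. Oligodendrocyte precursor markers reached 105 RPM in place and 241 RPM in silent libraries. The part of these cell types in the channel values was not tested. Transcripts from the Y chromosome were present in place replicate 1 and all 4 silent libraries and close to 0 in the other place libraries.

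Kcnj12, which encodes Kir2.2, was found in silent libraries and not in place libraries. All 5 place libraries had 0 Kcnj12 reads. Silent replicates 1 to 4 had 10, 132, 223 and 320 Kcnj12 reads. The groups did not overlap, although silent replicate 1 was close to the place libraries (0.597% of tested genes did not overlap with place lower).

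Scaled for depth, Kcnj12 stood at 0.713, 6.68, 13.6 and 14.2 RPM in silent replicates 1 to 4, a mean of 8.80 ± 6.38 RPM (SD, n = 4). A count of 0 allows up to 3 reads per library, which is 0.137 to 0.200 RPM in the place libraries, and covers counting error only. Against the mean of that limit, 0.165 RPM, the silent mean of Kcnj12 was at least 53.3-fold higher. That fold leaves out the spread among silent libraries. The lowest of them, at 0.713 RPM, was also above the limit.

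Only 2 of the 15231 tested genes (0.0131%) had no reads in any place library and reads in every silent one, the other being Gm44822. Over all 31051 named genes, with no filter, the layout was again found in 2 (0.00644%). The reverse, reads in every place library and none in any silent one, was found in 34 tested genes (0.223%). The filter treats these layouts unequally. A gene without place reads had to reach 10 in all 4 silent libraries, and a gene without silent reads in 4 of 5 place libraries. Genes detected also numbered 16612 to 20989 in place and 14175 to 17898 in silent libraries. Groups that did not overlap, with place higher, were found in 1.29%. Kcnj12 was picked for this layout, so these shares describe how rare it is in the table and test nothing.

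**Figure D1:**
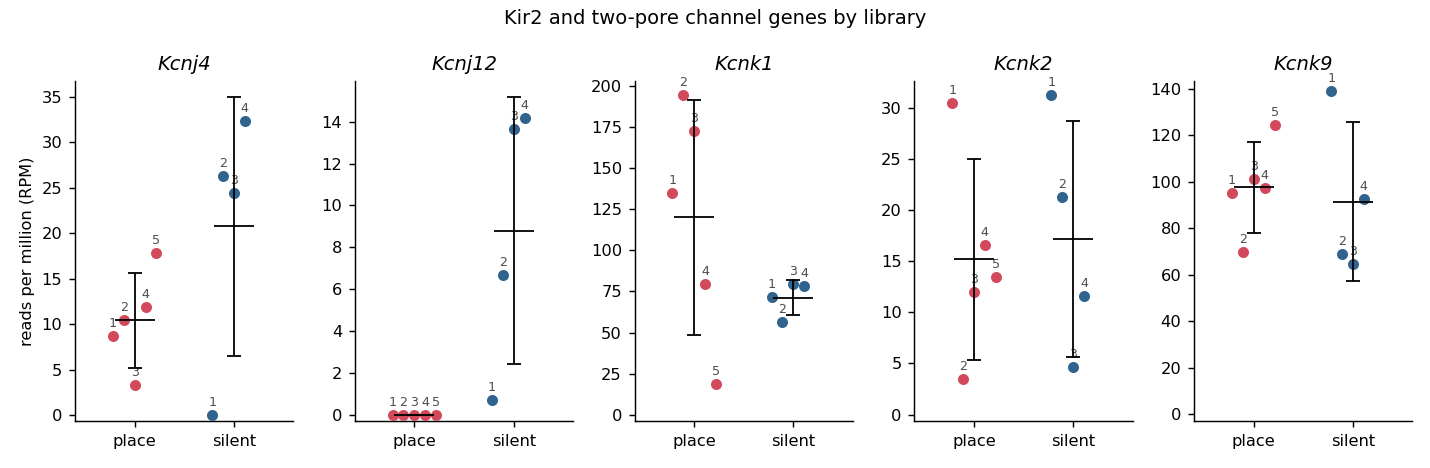
RPM of the 5 channel genes in each library, with place libraries left of silent ones. Each point is a library labelled with its replicate number, and the bar and whiskers are the mean and SD over 5 place or 4 silent libraries. Kcnj12 is at 0 in every place library, Kcnj4 is at 0 in silent replicate 1 alone, and silent libraries spread less in Kcnk1 (SD 10.6 RPM) than in Kcnk9 (SD 34.2 RPM).

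In all libraries but 1, Kcnj12 reads were present where Y-linked transcripts were present and absent where these were close to 0. The levels did not move together. Silent replicate 2, the highest in Y-linked transcripts, had 6.68 RPM of Kcnj12. Silent replicate 3, the lowest silent library in Y-linked transcripts, had 13.6 RPM. Place replicates 2 to 5 held Xist at 774 to 1400 RPM. Place replicate 1 had Y-linked transcripts at 1018 RPM, summed over Eif2s3y, Ddx3y, Uty and Kdm5d, and 0 Kcnj12 reads. The silent libraries had 735 to 1311 RPM of these transcripts, and silent replicate 1, the lowest of them in Kcnj12, also held Xist at 317 RPM. Among the 5 libraries with Y-linked transcripts, Kcnj12 had 0 reads in the place library and 10 to 320 in the 4 silent ones. With only 1 place library among them, sex and group cannot be told apart, and the part of the animals' sex was not tested. Summed markers of CA1 pyramidal cells (7 genes, 2 with a higher mean in place) reached 453 to 713 RPM in place and 528 to 700 RPM in silent libraries, which lacked Dcn reads. For CA3 markers (7 genes, all 7 with a higher mean in place) the sums were 431 to 784 RPM in place and 373 to 591 RPM in silent libraries, and their part was not tested. The CA3 marker Iyd had reads in place replicate 3 alone.

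**Figure D2:**
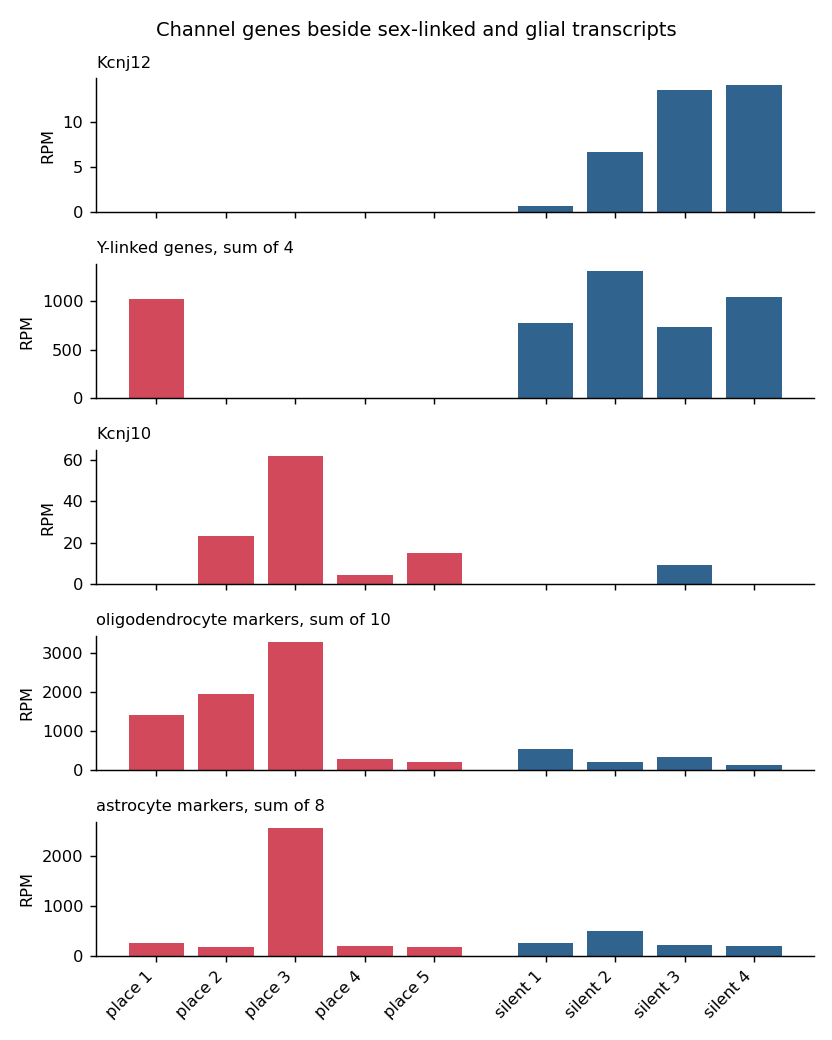
Levels in RPM of Kcnj12, Y-linked genes, Kcnj10, oligodendrocyte markers and astrocyte markers in each library. Bars are single libraries, with place in red at the left and silent in blue at the right. Place replicate 1 has Y-linked transcripts and no Kcnj12, and place replicate 3 is highest in Kcnj10 and in both glial sums.

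Kcnj4, which encodes Kir2.3, a subunit whose carboxyl end binds synaptic scaffold proteins, was detected in 8 of 9 libraries. Place replicates 1 to 5 had 8.65, 10.5, 3.30, 11.9 and 17.8 RPM of Kcnj4. Silent replicates 1 to 4 had 0, 26.3, 24.4 and 32.3 RPM. Every silent library except replicate 1 was above every place library, and replicate 1 was below all of them, so the groups overlapped.

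Mean Kcnj4 levels were 10.4 ± 5.25 RPM in place (SD, n = 5) and 20.7 ± 14.2 RPM in silent libraries (SD, n = 4), a ratio of 0.502. The difference of mean log2(value + 1) ran the other way, at 1.19, because a library at 0 weighs heavily on a log scale. Without silent replicate 1 that difference was -1.59, with a silent mean of 27.7 ± 4.11 RPM (SD, n = 3). The direction for Kcnj4 thus rested on 1 library. In silent replicate 1 a count of 0 allows up to 0.214 RPM.

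Kcnj2, which encodes Kir2.1, the best-studied subunit of the family, was patchy in both groups. Place replicates 1 to 5 had 5.26, 7.78, 22.5, 8.57 and 0 RPM. In silent replicates 1 to 4 it had 0, 0, 37.6 and 30.3 RPM. Its groups overlapped (log2 fold 1.59 ± 2.94 SE, limma adjusted p = 0.937). Kcnj14, which encodes Kir2.4, had a value above 0 in place replicate 3 and silent replicate 1 alone, and its reads could not be recovered.

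Levels can be set side by side between genes only per length. On the scale of RPM per kilobase of exon, with exon lengths from GENCODE M21, the sum of Kcnj2, Kcnj4 and Kcnj12 was 4.99, 6.31, 5.66, 7.08 and 8.26 in place replicates 1 to 5. It was 0.259, 14.6, 23.2 and 25.7 in silent replicates 1 to 4. Silent replicates 2 to 4 were each above every place library, and silent replicate 1 was far below. Kcnj12 made up 16.6%, 21.3% and 20.0% of this sum in silent replicates 2 to 4. In silent replicate 1 it was the whole of a very small sum. The sum leaves out Kcnj14, which had a value above 0 in silent replicate 1 and place replicate 3 but no recovered reads. The full Kir2 level of those libraries is therefore not known. Kcnj4 was the larger part in place replicates 1, 2, 4 and 5, at 77.3% or more, and 27.1% in place replicate 3, where Kcnj2 led.

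**Figure D3:**
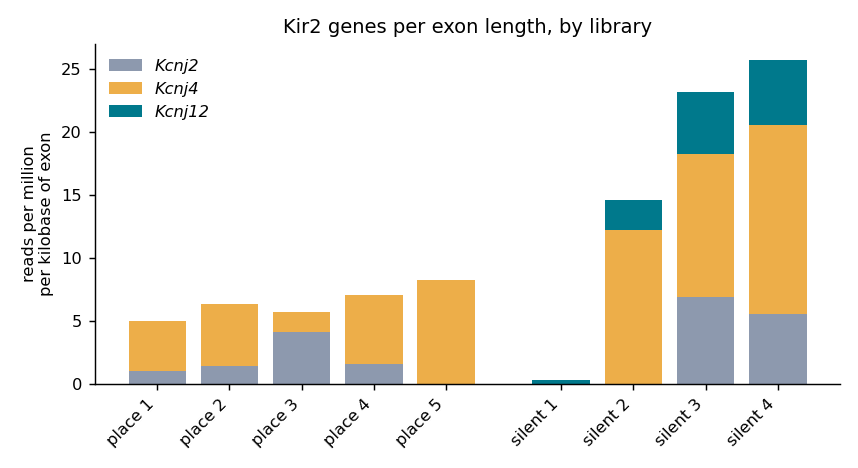
RPM per kilobase of exon for Kcnj2, Kcnj4 and Kcnj12, stacked for each library, with place libraries at the left and silent ones at the right. Sums in place libraries sit between 4.99 and 8.26, while silent libraries run from 0.259 to 25.7, and Kcnj12 appears in silent libraries alone. Kcnj14 is not included in the sums.

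Kcnk1, which encodes TWIK1, a weakly conducting leak channel found in neurons and astrocytes, was present in every library and varied more among place than among silent libraries. Place replicates 1 to 5 had 135, 195, 173, 79.8 and 18.9 RPM of Kcnk1. Silent replicates 1 to 4 had 71.4, 56.4, 79.4 and 78.1 RPM. Both the highest and the lowest library were place libraries, and the silent libraries lay between them.

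Kcnk1 averaged 120 ± 71.4 RPM in place (SD, n = 5) and 71.3 ± 10.6 RPM in silent libraries (SD, n = 4). The coefficient of variation was 0.594 in place and 0.148 in silent libraries. The median over all tested genes was 0.617 in place and 0.744 in silent libraries, so the silent spread of Kcnk1 was below the typical one. The difference of mean log2(value + 1) was 0.39, and it was 0.96 without place replicate 5 and 0.12 without place replicate 2. The oligodendrocyte marker sum was highest in the same 3 place libraries as Kcnk1, at 1401, 1949 and 3289 RPM in place replicates 1 to 3. All 10 of those markers had a higher mean in place, and Ermn had reads in place replicates 2 and 3 alone. Astrocyte markers summed to 2571 RPM in place replicate 3 and 168 to 262 RPM in the other place libraries, against 198 to 501 RPM in silent libraries. The place median of that sum was 183 RPM and the silent median 236 RPM, although 7 of 8 markers had a higher mean in place. The part of either in the Kcnk1 values was not tested. The annotation has a gene, Gm45875, on the opposite strand of Kcnk1, and the strand setting of the counting is not given, so some of its reads could be counted here.

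Kcnk2 encodes TREK1, the mechanically and lipid-gated leak channel of pyramidal cells. Place replicates 1 to 5 had 30.5, 3.50, 12.0, 16.6 and 13.4 RPM of Kcnk2. Silent replicates 1 to 4 had 31.2, 21.3, 4.64 and 11.6 RPM. The lowest and highest values were nearly the same in both groups.

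Kcnk2 averaged 15.2 ± 9.82 RPM in place (SD, n = 5) and 17.2 ± 11.6 RPM in silent libraries (SD, n = 4). Its difference of mean log2(value + 1) was -0.16 and turned positive without place replicate 2 (0.30), silent replicate 1 (0.24) or silent replicate 2 (0.05). The span from lowest to highest library was 8.93-fold. In the annotation 4 other genes overlap Kcnk2, so its reads are less certain than those of the other channels.

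Kcnk9 encodes TASK3, an acid-sensitive leak channel closed by Gq-coupled receptors, and had a narrower span over the 9 libraries than Kcnk1 or Kcnk2. Place replicates 1 to 5 had 95.3, 70.0, 101.2, 97.4 and 125 RPM of Kcnk9. Silent replicates 1 to 4 had 139, 69.1, 64.7 and 92.6 RPM. The whole span was 2.15-fold, and both ends of it were silent libraries. Means were 97.7 ± 19.5 RPM in place (SD, n = 5) and 91.4 ± 34.2 RPM in silent libraries (SD, n = 4), with a difference of mean log2(value + 1) of 0.14, which was -0.0025 without silent replicate 3. Kcnk9 has no overlapping gene in the annotation.

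Per kilobase of exon, Kcnk1 was the highest of the 5 genes in both groups, at 53.7 ± 31.9 RPM per kilobase in place (SD, n = 5) and 31.9 ± 4.73 in silent libraries (SD, n = 4). Kcnk9 came next in place, at 7.94 ± 1.58 against 7.43 ± 2.78 in silent libraries. Kcnj4 averaged 4.84 ± 2.44 in place and 9.64 ± 6.61 in silent libraries, where it ranked above Kcnk9. The difference between Kcnj4 and Kcnk9 exceeded either SD in place, with Kcnk9 above Kcnj4 in all 5 libraries. It was within the SD of Kcnj4 in silent libraries. There Kcnj4 was above Kcnk9 in every library but silent replicate 1, where Kcnj4 had no reads. Kcnk2 averaged 3.07 ± 1.99 in place, within its spread of Kcnj4, and 3.47 ± 2.35 in silent libraries. Kcnj12 was last in both, at 0 in place and 3.20 ± 2.32 in silent libraries, where it and Kcnk2 did not differ beyond their spread.

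The genes whose profile over the 9 libraries was most like that of each channel were named by Pearson r of log2(value + 1) among 12061 tested genes. Predicted-gene symbols (Gm with a number, or ending in Rik), among them Gm44822, were left out beforehand. For Kcnj12 these were Rnf167 (r = 0.952), a ubiquitin ligase gene, Hexim2 (r = 0.916), an inhibitor of transcription elongation, and Rnf103 (r = 0.904), another ubiquitin ligase gene. Rnf167 was expressed in every library, at 86.3 ± 7.72 RPM in place (SD, n = 5) and 125.9 ± 10.7 RPM in silent libraries (SD, n = 4). Hexim2 averaged 0.0426 ± 0.0953 RPM in place (SD, n = 5) and 15.2 ± 5.17 RPM in silent libraries (SD, n = 4). An r at or above 0.9 was reached by 4 genes for Kcnj12. The points share depth and the layout of the groups, so r is a description.

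For Kcnj4 the most alike were Nol4 (r = 0.991), Slc45a4 (r = 0.989) and Zdbf2 (r = 0.988), and 442 genes reached 0.9, and all 3 named genes likewise had no reads in silent replicate 1. For Kcnk1 they were Gtpbp3 (r = 0.951), Srebf1 (r = 0.923) and Bcl2l13 (r = 0.916). For Kcnk2 they were Tacc2 (r = 0.955), Asb6 (r = 0.953) and Rims1 (r = 0.918), the last an active zone scaffold gene. For Kcnk9 they were Rpl15-ps3 (r = 0.918), a pseudogene at under 1 RPM in every library, Sfi1 (r = 0.906) and Akap1 (r = 0.904).

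Over the whole table, limma called 0 of 15231 genes (0%) higher and 0 (0%) lower in place at an adjusted p under 0.05. Unadjusted, 573 genes passed 0.05 with place higher and 194 with place lower. Voom, also from limma, called 4 genes on the recovered reads, of which 3 were higher and 1 was lower in place. The median log2 fold over all tested genes was 0.20.

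**Figure D4:**
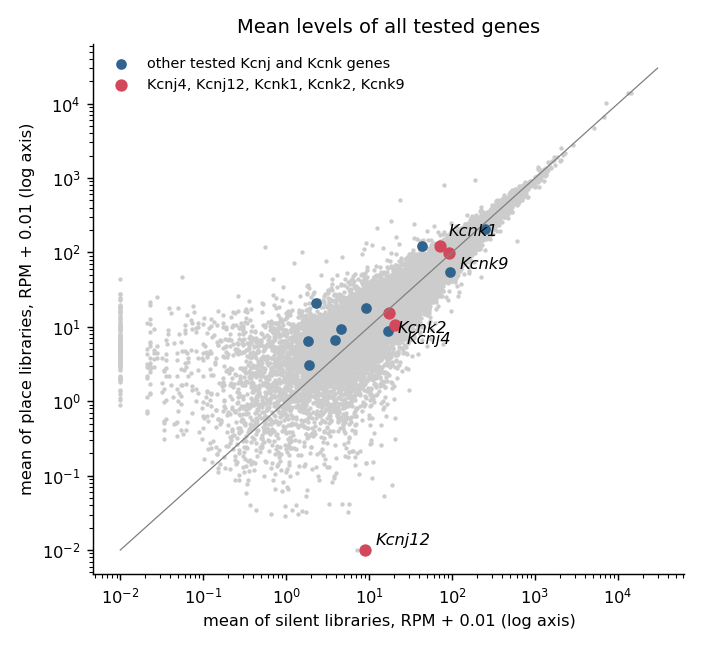
Mean RPM, plus 0.01, of each of the 15231 tested genes in place libraries (vertical, log axis) against silent libraries (horizontal, log axis), with the line of equal levels. Red points are the 5 channel genes and blue points the other 10 tested Kcnj and Kcnk genes. Kcnj12 lies at the floor of the vertical axis, with no reads in place libraries and a mean of 8.80 RPM in silent ones, while the other 4 lie in the main cloud.

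Of 13 other inward rectifier genes listed, 10 were in the table and 6 passed the filter, and none was called in either direction. Their log2 folds were positive in 5 and negative in 1, with a median of 1.32. Those that passed the filter may have done so through 1 group, so this median supports nothing. The G protein-gated (GIRK) subunits were the most abundant of them in RPM. Kcnj6, the GIRK2 gene, had 202, 168, 91.4, 31.6 and 107 RPM in place replicates 1 to 5. It had 77.1, 48.5, 36.4 and 13.6 RPM in silent replicates 1 to 4. In 4 of 5 place libraries Kcnj6 was above every silent one, and the groups overlapped (log2 fold 1.45 ± 0.63 SE, limma adjusted p = 0.861). Kcnj9, the GIRK3 gene, averaged 54.3 ± 21.8 RPM in place (SD, n = 5) and 94.3 ± 49.9 RPM in silent libraries (SD, n = 4). Its groups overlapped (log2 fold -0.69 ± 0.59 SE, limma adjusted p = 0.861). Kcnj3, the GIRK1 gene, averaged 209 ± 62.8 RPM in place (SD, n = 5) and 250 ± 182 RPM in silent libraries (SD, n = 4) (limma adjusted p = 0.987).

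Kcnj11, the pore of the ATP-sensitive potassium channel, had 0, 21.2, 18.7, 13.9 and 36.3 RPM in place replicates 1 to 5. The silent libraries, in the same order, had 0.499, 0.455, 30.9 and 4.43 RPM, and the groups overlapped (limma adjusted p = 0.944). Kcnj10, which encodes the glial channel Kir4.1, had 0, 23.3, 61.6, 4.38 and 14.9 RPM in place replicates 1 to 5. Of the silent libraries only replicate 3 had Kcnj10 reads, at 9.23 RPM (log2 fold 5.09 ± 2.59 SE, limma adjusted p = 0.861). Place replicate 3, the highest in Kcnj10, also had the highest astrocyte sum, at 2571 RPM, and the highest oligodendrocyte sum, at 3289 RPM. The part of glial RNA in these values was not tested.

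Place replicate 3 was also alone in holding Kcnj15 reads, at 176 RPM, and held Kcnj16, which encodes the Kir4.1 partner Kir5.1, at 31.6 RPM. Elsewhere Kcnj16 was seen only in silent replicate 1, at 0.357 RPM. Kcnj13 had reads in silent replicate 3 alone. Without place replicate 3, then, neither Kcnj15 nor Kcnj16 had reads in any place library.

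Of 11 other tandem-pore genes listed, 8 were in the table and 4 passed the filter, and none was called in either direction. All 4 log2 folds were positive, with a median of 2.29, which the filter may again have shaped. Kcnk10, the TREK2 gene, had 0, 10.4, 12.9, 13.5 and 10.3 RPM in place replicates 1 to 5. Levels in silent replicates 1 to 4 were 0.571, 15.5, 0.0611 and 2.26 RPM. Both groups held a library far from their others, and they overlapped (log2 fold 1.57 ± 2.44 SE, limma adjusted p = 0.919). Kcnk4, which encodes the mechanosensitive channel TRAAK, averaged 6.36 ± 4.32 RPM in place (SD, n = 5) and 1.80 ± 3.0 RPM in silent libraries (SD, n = 4), with overlapping groups (log2 fold 3.20 ± 2.20 SE, limma adjusted p = 0.861).

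Kcnk3, which encodes TASK1, the closest relative of Kcnk9, averaged 6.67 ± 6.73 RPM in place (SD, n = 5) and 3.84 ± 3.33 RPM in silent libraries (SD, n = 4), and had no reads in silent replicate 4 (limma adjusted p = 0.893). Kcnk12 averaged 3.03 ± 2.44 RPM in place and 1.86 ± 2.22 RPM in silent libraries (SD, n = 5 and 4) (limma adjusted p = 0.861). Kcnk5, Kcnk6, Kcnk7 and Kcnk13 had reads in at most 2 libraries each. Kcnk13, which encodes THIK1, the main tandem-pore channel of microglia, stood at 16.0 RPM in place replicate 1 and 2.45 RPM in place replicate 3. Microglial markers summed to 17.0 and 41.2 RPM in those libraries and reached 250 RPM in silent replicate 4, which had no Kcnk13 reads.

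**Figure D5:**
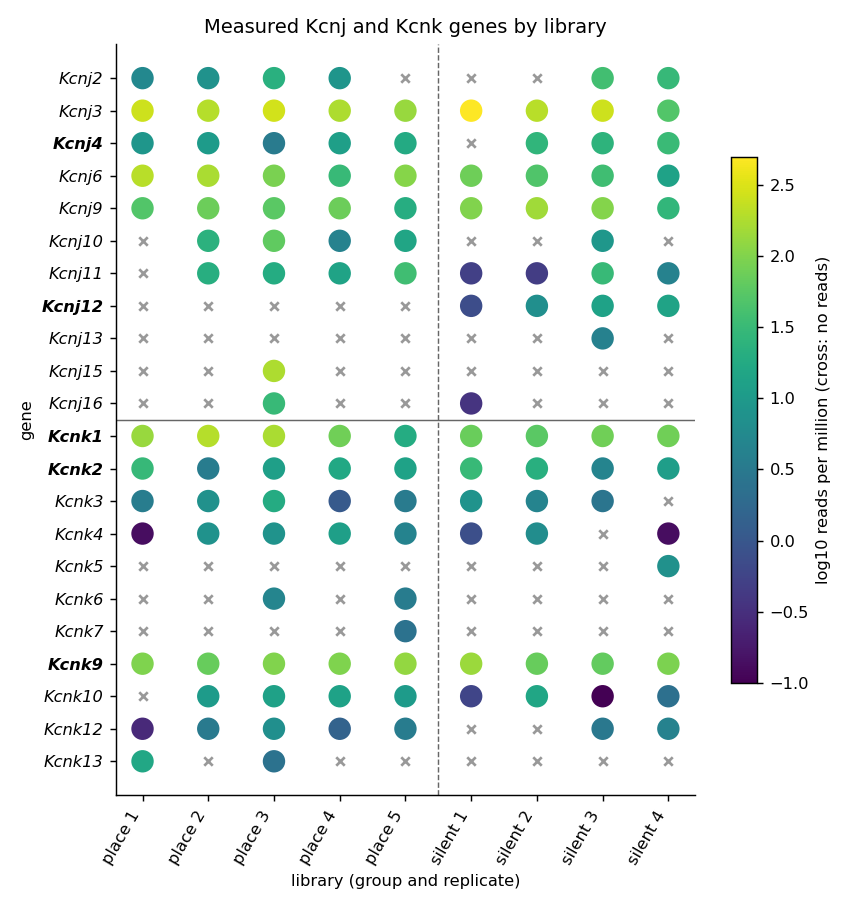
Levels of the 22 Kcnj and Kcnk genes with recovered reads (Kcnj14 is left out) in each library as log10 RPM (colour), with crosses where a library had no reads, place libraries left of the dashed line and silent ones right of it. Names in bold are the 5 channels described. Kcnk1, Kcnk2 and Kcnk9 have reads in all 9 libraries, and Kcnj15 and most Kcnj16 reads come from place replicate 3.

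Of the 18 other measured Kcnj and Kcnk genes, 8 to 15 had a value above 0 in place libraries and 7 to 10 in silent ones, Kcnj14 included by its deposited value. Means were 10.8 ± 2.59 genes in place (SD, n = 5) and 8.75 ± 1.26 in silent libraries (SD, n = 4), a difference of 2.05 (exact permutation test, two-sided, p = 0.238, with 0.0159 the smallest p possible). Without place replicate 3 the difference was 1 gene. Over the whole table, 16612 to 20989 genes were detected in place and 14175 to 17898 in silent libraries, and the part of this in the family count was not tested.

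Genes that anchor or regulate these channels were also followed, namely scaffolds, Gq-pathway and phosphoinositide enzymes, kinase subunits and adaptor proteins. Of 38 such genes, 37 were tested and none was called in either direction, with 22 positive and 15 negative log2 folds and a median of 0.07. Without silent replicate 1 there were 13 positive and 24 negative log2 folds and a median of -0.09, so the balance rested on that library. The median over all tested genes also fell without it, from 0.20 to 0.08, so the shift was not particular to these genes. Cask, a scaffold that binds the carboxyl end of Kir2 channels, had 55.2, 103, 85.1, 66.9 and 78.7 RPM in place replicates 1 to 5. Levels were 26.1, 52.3, 49.0 and 15.3 RPM in silent replicates 1 to 4. The groups did not overlap (log2 fold 1.26 ± 0.49 SE, limma adjusted p = 0.861), a layout shared by 1.29% of tested genes. Lin7c, a partner of Cask in the same scaffold, averaged 104 ± 31.9 RPM in place (SD, n = 5) and 147 ± 47.7 RPM in silent libraries (SD, n = 4), with overlapping groups (limma adjusted p = 0.861).

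Among the enzymes, Plcb4, a phospholipase C that splits PIP2, averaged 32.7 ± 30.5 RPM in place (SD, n = 5) and 7.47 ± 10.4 RPM in silent libraries (SD, n = 4), with place replicate 3 highest at 85.2 RPM (log2 fold 4.38 ± 1.97 SE, limma adjusted p = 0.861). Pi4ka, a lipid kinase that feeds PIP2 synthesis, averaged 401 ± 51.0 RPM in place and 320 ± 56.2 RPM in silent libraries (SD, n = 5 and 4) (limma adjusted p = 0.861).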

How the data were processed

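The authors deposited a normalized read signal for 9 libraries; STAR, HTSeq and GRCm39 are named in the submitters' processing notes, and no source used here gives the annotation, strand setting or normalization tool. Within a gene, the deposited signal rose in equal steps that were the same in all libraries, so the scaling was per gene and not per library. The step matched a trimmed mean (TMM) factor of each gene against Ezh2, and dividing by it gave whole reads, within 0.05, for 30694 of 31051 genes and 15206 of the 15231 tested. A column that names no gene (0.177 to 0.304% of a library's total) was left out. RPM is recovered reads per 1000000 of a library's TMM-scaled total.

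Genes reaching 10 on the deposited scale in 4 or more libraries were tested with limma 3.58.1 (R 4.3.3, intensity trend) on log2(value + 1) of library-scaled values, as the place mean less the silent mean, with p-values adjusted by Benjamini-Hochberg. Fold changes are on that scale. The p-values measure only the spread between these libraries, which may be technical. On simulated reads, recovery was exact for 100% of genes with reads in all 9 libraries and 99.56% of the others. The limma test found 19% of simulated 4-fold changes (0 false calls) and 100% of 32-fold ones (13 false calls). The simulated spread was taken from genes with reads in all 9 libraries. A gene not called may thus still differ by 4-fold. The simulated rates may not hold for genes with no reads in some libraries, which may differ by more without being called. Kcnj10 was not called at a log2 fold of 5.09 ± 2.59 SE. Channels, lists and tests were chosen with earlier results of these data known. Named genes are the 5 channels, their closest relatives, the 5 listed genes with the smallest p per list and the 3 most alike genes per channel; others were named after their values were seen, and 1 gene under the rule is not reported here. Intervals and limits cover counting error only.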

Additional observations from a re-analysis of the deposited data

Results flagged for a closer look

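A library far from the others of its group was found in 6 of 35 gene and group combinations examined among the named channels and regulators. The rule assumes about 1 in 20 by chance, a rate not checked for genes with no reads in some libraries. In silent replicate 2, Kcnk4 stood at 6.28 RPM, with the other silent libraries at 0 to 0.785 RPM, and Kcnk10 at 15.5 RPM, with the others at 0.0611 to 2.26 RPM. In silent replicate 3, Kcnj10 stood at 9.23 RPM, with no reads in the other silent libraries, and Kcnj11 at 30.9 RPM, with the others at 0.455 to 4.43 RPM. Kcnk10 was at 0 RPM in place replicate 1, with the other place libraries at 10.3 to 13.5 RPM. Plcb4 stood at 85.2 RPM in place replicate 3, with the others at 12.1 to 32.8 RPM. None of the 5 channels described met the rule. Kcnj4 came near to it, at 0 RPM in silent replicate 1 and 24.4 to 32.3 RPM in the other silent libraries. The column that names no gene, not used above, held up to 0.304% of a library's total.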

How the results depend on the processing

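No paired analysis was possible because no place library shares a mouse designation with a silent one. Replicate numbers were assigned here within each group and mark no pairs. The number of genes called by limma was 0, and it was 4 with voom on recovered reads; as single libraries were left out it ran from 0 to 1, the 1 gene appearing without place replicate 1. No listed inward rectifier, tandem-pore gene or regulator was called under any of 16 alternatives. The log2 difference of Kcnj12, which is no bound because it depends on the pseudocount, was -8.61, and -11.93 with a pseudocount of 0.1 and -5.36 with 10; without single libraries it ran from -9.59 to -8.16. Kcnk2 went to 1.15 when only the 5 libraries with Y-linked transcripts were used, an alternative chosen after seeing the data. The place group was then place replicate 1 alone, the highest place library in Kcnk2, at 30.5 RPM. The silent group was unchanged, and the part of sex was not tested. As single libraries were left out, the log2 difference ran from -1.59 to 2.20 for Kcnj4, from 0.12 to 0.96 for Kcnk1, from -0.68 to 0.30 for Kcnk2 and from -0.0025 to 0.37 for Kcnk9. The detection difference of other family genes ran from 1 to 2.75 genes. Both planned count-model tests on recovered reads were not run.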
